A study of Rattus norvegicus with 4 samples.

Results

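The let-7 family is described here through the guide arms, the strand of each miRNA hairpin that is loaded onto Argonaute, of 8 rat miRNAs: rno-let-7a, rno-let-7b, rno-let-7c, rno-let-7d, rno-let-7e, rno-let-7f, rno-let-7i and rno-miR-98. They were chosen by name, as the rows without an asterisk, and are 8 of the 680 miRNA names listed in each file. Small RNA libraries came from total RNA of rat liver, with 2 samples labelled hepatic fibrosis and 2 labelled normal. The labels give no strain, sex, age or way of inducing fibrosis, nor whether replicates are separate animals. The second fibrosis file and the second normal file agreed in all 680 values (0 differences), so they were counted once as a shared library. The column header of the second fibrosis file equals its sample title and that of the second normal file does not, which does not show from which tissue the values came. Both labels are therefore treated alike. There were thus 3 distinct libraries: fibrosis replicate 1, called the fibrosis library here, normal replicate 1, called the normal library, and the shared library. Each label had 1 library of its own, and the condition had no replicate check.

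let-7 miRNAs repress messenger RNAs that pair with their seed, and are known for holding back growth and cell cycle genes such as Hmga2, Myc and the Ras genes. LIN28 proteins bind let-7 precursors and block their maturation in early development. In the adult liver LIN28 is low and mature let-7 is abundant, and the family is known as a brake on proliferation and liver tumours.

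The mature sequences are shown because single bases tell most of the reads of the family apart. All 8 members matched a mature sequence in the RefSeq table (build GRCr8), and all have 22 bases. Capitals mark the seed, bases 2 to 8 counted from the 5′ end, and the 8 members share 1 seed. Among the 563 listed names for which a sequence was found, 0 others carried it. For some of these names the sequence matched was that of the other arm.
let-7a: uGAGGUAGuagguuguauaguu
let-7c: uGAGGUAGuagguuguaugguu
let-7b: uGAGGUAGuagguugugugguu
let-7f: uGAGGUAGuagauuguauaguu
let-7e: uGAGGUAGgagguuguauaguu
let-7d: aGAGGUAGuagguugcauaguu
let-7i: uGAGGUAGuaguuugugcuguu
miR-98: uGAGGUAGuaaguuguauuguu

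Read from let-7a as the reference, let-7c differs by A19G, let-7e by U9G and let-7f by G12A. let-7b carries A17G and A19G, and so stands 1 base from let-7c. let-7d carries U1A and U16C, miR-98 carries G11A and A19U, and let-7i has 4 changes, G12U, A17G, U18C and A19U. Of the 28 pairs of members, 4 differed by 1 base and 7 by 2 bases. Single-base steps join let-7a, let-7b, let-7c, let-7e and let-7f into 1 group of 5, in which a sequencing error or a mapping rule that allows a mismatch can move a read from 1 name to another. The rule the authors used for such reads is not given in the sources used here.

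The 8 guide arms are encoded at 11 loci on 6 chromosomes in GRCr8, mostly in clusters on 1 strand. The mature let-7a of Mirlet7a1 lies at chr17:16320145-16320166, with let-7f (Mirlet7f-1os in RefSeq, chr17:16320508-16320529) 363 bases and let-7d (Mirlet7d, chr17:16322273-16322294) 2128 bases further on, all on the plus strand. A let-7c copy (Mirlet7c2, chr7:118683636-118683657) and let-7b (Mirlet7b, chr7:118684044-118684065) lie 408 bases apart on the plus strand. The other let-7f copy (Mirlet7f2, chrX:24460052-24460073) lies 611 bases before miR-98 (Mir98, chrX:24460663-24460684) on the plus strand. let-7e (Mirlet7e, chr1:67350243-67350264, plus strand) follows miR-99b by 173 bases. The other let-7a copy (Mirlet7a-2, chr8:50805219-50805240) lies 6912 bases from miR-100, and the other let-7c copy (Mirlet7c1, chr11:29688127-29688148) lies 686 bases from the minor arm of miR-99a, each on the plus strand. let-7i (Mirlet7i, chr7:60527935-60527956, minus strand) had no other miRNA of the table within 10000 bases. Reads of let-7a, let-7c and let-7f are sums over their 2 loci, because the mature sequences of the copies are identical.

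The files hold reads per 1000000 reads (RPM), from which whole reads were recovered. The authors' scaling totals were 6357069 to 7070374 reads, of which 3339603 to 3653412 fell on listed miRNAs. Hepatocyte miRNAs, which check the liver label, summed to 253095 RPM in the fibrosis library, 273727 RPM in the normal library and 257024 RPM in the shared library, with 5 of 5 detected in each. Nearly all of this was miR-122, at 243915, 263140 and 247931 RPM. For the fibrosis library over the normal library, its log2 ratio was -0.11. Those of miR-192, miR-194, miR-101a and miR-101b were -0.19, -0.53, -0.38 and -0.26. The 5 stellate and mesenchymal miRNAs, all detected, summed to 669, 466 and 1009 RPM in the same order, but did not move together. Over the normal library, the log2 ratio of miR-199a-3p was 0.76 in the fibrosis library and 1.37 in the shared library. That of miR-143 was -0.65 and -0.09, and that of miR-145 was -0.58 and -0.99. The 5 leukocyte miRNAs summed to 49.6, 37.8 and 70.5 RPM in the fibrosis, normal and shared libraries. Both endothelial names summed to 7.77, 6.51 and 10.9 RPM and both erythroid miRNAs to 2.88, 7.78 and 2.05 RPM. Their part in the let-7 values was not tested. In such bulk tissue, fewer cells of a type and less RNA per cell cannot be told apart.

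The family was about as abundant as miR-122, the hepatocyte miRNA. Summed over the 8 members it reached 240169 RPM in the fibrosis library, 231228 RPM in the normal library and 257373 RPM in the shared library. The family total therefore stood lowest in the normal library and highest in the library that carries both labels. For each miR-122 read there were 0.985, 0.879 and 1.04 family reads in the same order. Together the family and miR-122 took 95.9%, 95.7% and 96.2% of the reads on listed miRNAs. With miR-122 set aside, the 8 members held 92.1% of the remaining miRNA reads in the fibrosis library (95% exact binomial interval 92.1 to 92.2), 91.2% in the normal library (91.1 to 91.2) and 92.8% in the shared library (92.7 to 92.8). These and all later intervals cover counting error only, because they come from the reads within each library. Spread between animals or preparations is not in them, nor that from PCR copies, which were not marked by molecular identifiers.

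The 4 leading members were let-7c, let-7f, let-7a and let-7b. let-7c was at 83074 RPM in the fibrosis library, 70277 RPM in the normal library and 82544 RPM in the shared library. let-7f was at 65867, 73694 and 77529 RPM in the same order, and was thus low where let-7c was high in the fibrosis library. let-7a, whose sequence is shared from nematodes to mammals, stood at 50226, 54540 and 57329 RPM, lowest in the fibrosis library like let-7f. let-7b was at 35008, 26709 and 33064 RPM, lowest in the normal library like let-7c. These 4 members held 97.5%, 97.4% and 97.3% of the family's reads.

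The other 4 members were far less abundant. let-7d, the only member that begins with A, was at 3948 RPM in the fibrosis library, 4254 RPM in the normal library and 4422 RPM in the shared library. let-7e stood at 1695, 1454 and 2154 RPM, with the shared library well above the other 2. let-7i was at 341, 291 and 316 RPM. miR-98 had 9.35, 10.5 and 14.5 RPM, on 65, 74 and 92 reads, so its counting intervals were wide (7.22 to 11.9, 8.22 to 13.1 and 11.7 to 17.7 RPM). Among all listed names in the 3 libraries, let-7i ranked between 20 and 22 and miR-98 between 63 and 75, while 6 members stood among the 10 most abundant names in each library.

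**Figure D1:**
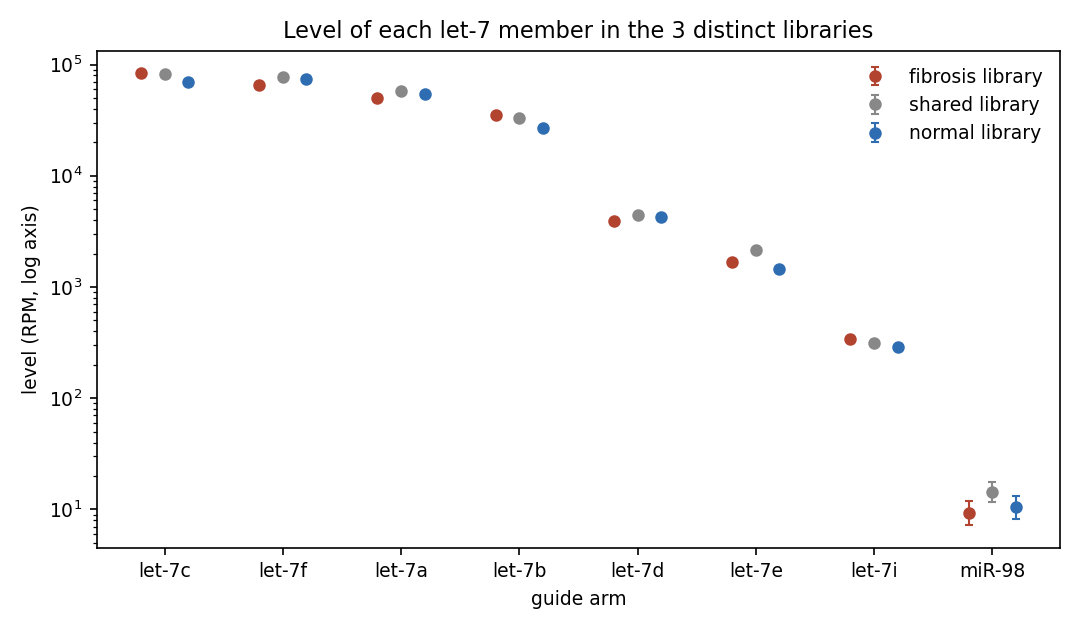
Level of each guide arm in RPM on a log axis, by member, with 1 point per distinct library and bars for the 95% exact binomial interval. The members fall from 83074 RPM for let-7c to 9.35 RPM for miR-98 in the fibrosis library, and libraries differ far less than members do.

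The order of the members was the same in the 3 libraries except for its first 2 places. let-7a was the third, let-7b the fourth, and let-7d, let-7e, let-7i and miR-98 followed in each library. let-7c led in the fibrosis library, with 1.26 times the reads of let-7f (1.26 to 1.27), and in the shared library, with 1.06 times (1.06 to 1.07). In the normal library let-7f led instead, with 1.05 times the reads of let-7c (1.04 to 1.05). The ratios between the other neighbours in the order ranged from 1.29 to 36.4 over the 3 libraries, and no interval of a ratio between neighbours reached 1. By counting error alone the neighbours therefore differed in each library, but the lead of let-7c or let-7f changed from library to library. The fibrosis library and the shared library had the same order for all 8 members.

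Shares of the family do not depend on the scaling between libraries, but they add up to the whole. A higher share of some abundant members therefore means a lower share of others. In the shares, let-7b and let-7c stood against let-7a, let-7d and let-7f. let-7c held 34.6% of the family's reads in the fibrosis library (34.5 to 34.7), 30.4% in the normal library (30.3 to 30.5) and 32.1% in the shared library (32.0 to 32.1). let-7b held 14.6% (14.5 to 14.6), 11.6% (11.5 to 11.6) and 12.8% (12.8 to 12.9). Both were highest in the fibrosis library and lowest in the normal library. let-7f held 27.4% (27.4 to 27.5), 31.9% (31.8 to 31.9) and 30.1% (30.1 to 30.2), the largest shift of any member at 4.45 percentage points. let-7a held 20.9% (20.9 to 21.0), 23.6% (23.5 to 23.7) and 22.3% (22.2 to 22.3), and let-7d 1.64% (1.62 to 1.66), 1.84% (1.82 to 1.86) and 1.72% (1.70 to 1.74). For these 5 members the shared library lay between the other 2, with intervals that did not overlap.

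let-7e, let-7i and miR-98 did not follow that order. let-7e held 0.706% (0.693 to 0.718), 0.629% (0.617 to 0.641) and 0.837% (0.823 to 0.851), highest in the shared library. let-7i held 0.142% (0.136 to 0.148), 0.126% (0.120 to 0.131) and 0.123% (0.118 to 0.128), and the last 2 intervals overlapped. miR-98 held 0.00389%, 0.00453% and 0.00562%, with overlapping intervals for neighbouring values. In all, 7.32% of the family's reads would have to move to another member to turn the composition of the fibrosis library into that of the normal library. The same measure was 3.18% between the shared library and the normal library and 4.27% between the fibrosis library and the shared library. When the 5 members joined by single-base steps were summed, which pools names up to 3 bases apart, the 7.32% dropped to 0.196%. That sum held 98.2%, 98.03% and 98.2% of the family in the fibrosis library, the normal library and the shared library, so adding them up removes nearly any shift within the family, whatever its source. The part of reads assigned to a neighbouring name was not tested.

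**Figure D2:**
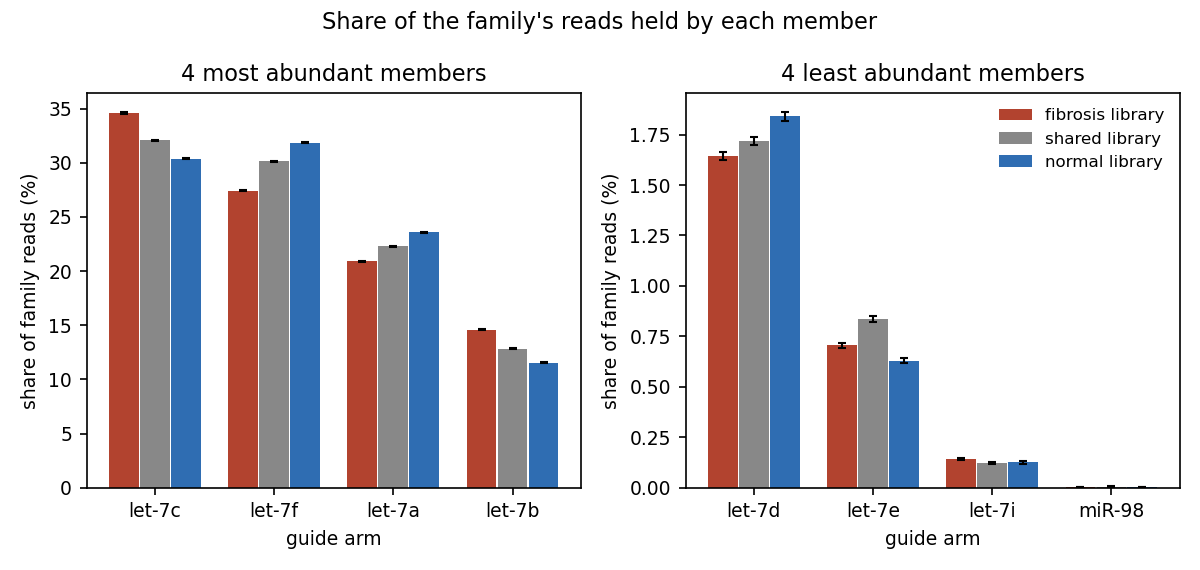
Share of the family's reads (percent) held by each member in the 3 distinct libraries, with 95% exact binomial intervals; the right panel has its own, smaller scale. let-7c and let-7b step down from the fibrosis library to the shared library to the normal library, and let-7f, let-7a and let-7d step up.

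The ratio of the fibrosis library to the normal library was above 1 for 4 members and below 1 for 4. let-7b had the highest ratio at 1.31 (1.30 to 1.32), followed by let-7c at 1.18 (1.18 to 1.19), let-7i at 1.17 (1.10 to 1.24) and let-7e at 1.17 (1.13 to 1.20). Below 1 were let-7d at 0.928 (0.913 to 0.944), let-7a at 0.921 (0.917 to 0.925), let-7f at 0.894 (0.890 to 0.897) and miR-98 at 0.893 (0.630 to 1.26). The intervals of 7 members did not contain 1, 4 above and 3 below, and that of miR-98 did. In the background of 76 miRNAs that averaged at least 10 RPM in this pair, which leaves out miR-98 at 9.91 RPM, 57.9% had such an interval, 23.7% above 1 and 34.2% below. Because the abundant members have very narrow intervals, size is the plainer comparison. The median absolute log2 ratio was 0.19 over the 8 members and 0.24 over the 76 miRNAs, and 0 members against 6 of the 76 differed by at least 1.5-fold. The family total had a ratio of 1.039 (1.036 to 1.041), which came to 0.988 (0.986 to 0.991) with upper-quartile scaling and to 0.976 (0.973 to 0.979) without let-7c.

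If either label of the shared library is right, it is a replicate of 1 of the others, and in the authors' RPM the members differed within both possible pairs by about as much as between the fibrosis and normal libraries. Against the normal library it was higher for 8 of 8 members, from 1.04 (1.02 to 1.06) for let-7d to 1.48 (1.44 to 1.52) for let-7e, all with intervals above 1. In that pair 72.6% of 73 miRNAs had an interval that did not contain 1. Scaled to the reads on listed miRNAs without miR-122, 4 members were higher and 4 lower, with let-7a at 0.961, let-7d at 0.950, let-7f at 0.962 and let-7i at 0.994. The other 4 scalings gave 8 of 8 higher. The fibrosis library over the shared library gave 3 members above 1 and 5 below, again with 8 intervals that did not contain 1, where the background was 68.1% of 72 miRNAs. This division became 2 above and 6 below with DESeq2 size factors and 0 above and 8 below with upper-quartile factors. These ratios ran from 0.646 (0.463 to 0.897) for miR-98 and 0.787 (0.768 to 0.807) for let-7e to 1.06 (1.05 to 1.07) for let-7b and 1.08 (1.01 to 1.14) for let-7i. The median absolute log2 ratio of the members was 0.18 in each of these 2 pairs and 0.19 between the fibrosis library and the normal library, against 0.33 over the 73 miRNAs, 0.28 over the 72 and 0.24 over the 76. At least 1.5-fold differences numbered 20 of 73 and 14 of 72 miRNAs in the pairs with the shared library, among them 0 and 1 members, the latter miR-98.

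Member by member, and in the authors' RPM, the difference between the labelled libraries exceeded that in both pairs with the shared library for let-7b, let-7c and let-7i. The log2 ratio of let-7b was 0.39 for the fibrosis library over the normal library, 0.31 for the shared library over the normal library and 0.08 for the fibrosis library over the shared library. For let-7c the same values were 0.24, 0.23 and 0.01, and for let-7i 0.23, 0.12 and 0.11. In these 3 members the shared library lay between the others, for let-7c almost level with the fibrosis library. In the authors' RPM it was the highest of the 3 libraries for the other 5, but for only 2, let-7e and miR-98, when scaled to the listed reads without miR-122, for 6 with DESeq2 size factors and for 8 with upper-quartile factors. For let-7a and let-7f the log2 ratio was -0.12 and -0.16 between the labelled libraries, and -0.19 and -0.24 for the fibrosis library over the shared library. For let-7e it was 0.22 between the labelled libraries, 0.57 for the shared library over the normal library and -0.35 for the fibrosis library over the shared library.

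**Figure D3:**
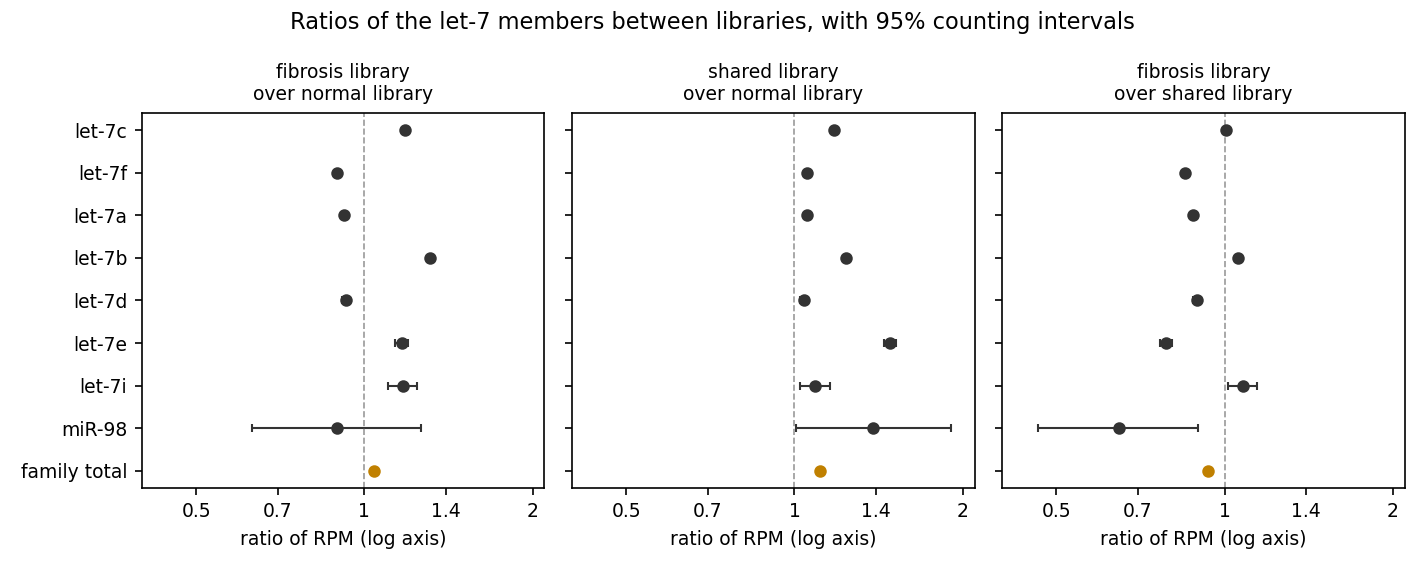
Ratio of RPM for each member and for the family total (log axis) in the 3 pairs of distinct libraries, with 95% counting intervals and a dashed line at a ratio of 1. In the left panel, let-7c, let-7b, let-7e and let-7i lie to the right of the line and the other 4 members to the left, while in the middle panel all 8 lie to the right in the authors' RPM (4 of 8 when scaled to the listed reads without miR-122).

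No member passed the test across all miRNAs. With the 4 files as labelled, limma on log2(RPM + 1) called 0 of 294 miRNAs at an adjusted p under 0.05, a background of 0%, and 0 of 8 members. At an unadjusted p under 0.05 there were 4 miRNAs, against 1 with edgeR's quasi-likelihood test and 0 with DESeq2. The fitted log2 differences of the members, fibrosis over normal, ran from -0.08 for let-7f (SE 0.13) to 0.20 for let-7b (SE 0.14), and limma's adjusted p was 1 for each. This fit has 1 file in both groups, which shrinks each difference toward 0. Counting the identical files once leaves 2 libraries against 1, and these fits take the spread of the single library to be that of the other pair. Only their sizes are given here. With the identical files taken as fibrosis, the log2 differences of the members ran from -0.04 for let-7f to 0.39 for let-7e. With the identical files taken as normal, they ran from -0.36 for miR-98 to 0.24 for let-7b.

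let-7a, let-7d and let-7f, encoded side by side on chromosome 17, had like ratios. On the pair of log2 ratios of the fibrosis library and of the shared library, each over the normal library, let-7a, let-7d and let-7f lay at -0.12 and 0.07, -0.11 and 0.06, and -0.16 and 0.07. The member nearest to let-7a was let-7d, at a distance of 0.02, and the member nearest to let-7f was let-7a, at 0.04. let-7d differs from let-7a at 2 bases and from let-7f at 3. Among the members, let-7b was nearest to let-7c, its neighbour on chromosome 7, at a distance of 0.17. The member nearest to let-7c was let-7i, at 0.11, which lies elsewhere on that chromosome. miR-98, encoded beside a let-7f copy, had let-7f as its nearest member but at a distance of 0.39, on few reads. Of the non-members that averaged at least 100 RPM, miR-152 lay nearer than any member to let-7b (0.09), let-7c (0.08) and let-7e (0.30). miR-26b lay nearer than any member to miR-98 (0.28). For let-7a, let-7d, let-7f and let-7i a member was nearer.

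Grouped by these clusters, after their values had been seen, let-7b and let-7c together held 49.2% of the family in the fibrosis library (49.1 to 49.2), 41.9% in the normal library (41.9 to 42.02) and 44.9% in the shared library (44.8 to 44.99). let-7a, let-7d and let-7f held 49.98%, 57.3% and 54.1%. Together the groups held nearly all of the family's reads, so a higher share of either is a lower share of the other. For each read of the latter group there were 0.984 reads of the former in the fibrosis library (0.981 to 0.987), 0.732 in the normal library (0.730 to 0.734) and 0.830 in the shared library (0.827 to 0.833). The groups were thus nearest to level in the fibrosis library. Since let-7a, let-7c and let-7f each have a copy at another locus, the reads cannot be assigned to the clusters.

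**Figure D4:**
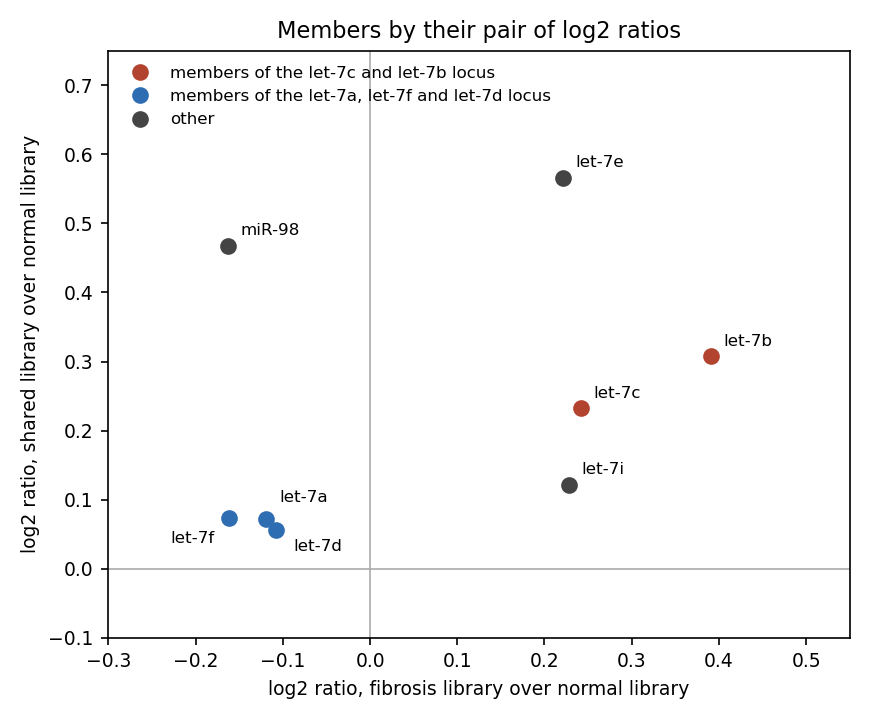
Each member placed by its log2 ratio for the fibrosis library (horizontal) and for the shared library (vertical), both over the normal library, which the axes share. let-7a, let-7d and let-7f lie close together at the lower left, let-7b and let-7c lie to the right, and let-7e and miR-98 stand apart at 0.57 and 0.47 on the vertical axis.

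Neighbours of the family with other seeds were far rarer than each member except miR-98, and all but miR-100 stood above miR-98. miR-99a was at 36.4 RPM in the fibrosis library, 45.5 RPM in the normal library and 46.1 RPM in the shared library. miR-125b-5p was at 39.3, 46.8 and 45.3 RPM, and miR-98 at 9.35, 10.5 and 14.5 RPM, in the same order. miR-99b and miR-125a-5p, encoded with let-7e, stood at 15.5 and 17.8 RPM in the fibrosis library, 12.2 and 19.5 RPM in the normal library and 15.6 and 19.3 RPM in the shared library. Their ratios between the labelled libraries were 1.28 (0.953 to 1.72) and 0.914 (0.711 to 1.17), both with intervals that contained 1. miR-99a, next to a let-7c copy, had a ratio of 0.799 (0.675 to 0.945), below 1 where let-7c was above it. miR-125b-5p, for which no locus was found within 10000 bases of a member, had 0.839 (0.712 to 0.988). For the shared library over the normal library they had 1.01 (0.861 to 1.19) and 0.968 (0.823 to 1.14), with intervals that contained 1. miR-100, next to a let-7a copy, rested on 5, 11 and 14 reads. Of the 20 non-members that averaged at least 100 RPM over the libraries, miR-152 had the pair of log2 ratios nearest to let-7b (distance 0.09), let-7c (0.08), let-7e (0.30) and let-7i (0.17). miR-21 was nearest to let-7a (0.11), let-7d (0.13) and let-7f (0.10), and miR-26b to miR-98 (0.28). These distances rest on 3 libraries.

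The split of the members between the fibrosis library and the normal library also followed their base composition. let-7b, with 10 G and C bases of 22, had the highest ratio, and let-7f and miR-98, with 7, had the lowest. The interval of miR-98, 0.630 to 1.26, leaves its place open. let-7a has 8, and let-7c, let-7d, let-7e and let-7i have 9 each, of which let-7d alone had a ratio below 1. Across the 8 members, which share most of their sequence and the same 2 libraries, Pearson's r between the percentage of G and C bases and the log2 ratio was 0.84 and Spearman's rho 0.93. Across the 53 other miRNAs that had a sequence and averaged at least 10 RPM, r was 0.08. For some of these others, miR-22 and miR-143 among them, the sequence matched by name was that of the other arm. The r values over other miRNAs, here and in the other pairs, therefore cannot serve as a contrast to the members. For the fibrosis library over the shared library r was 0.72 over the members and 0.35 over 49 others, and for the shared library over the normal library it was 0.07 and -0.26 (50 others). Over the 8 members r was thus higher in the 2 pairs that contain the fibrosis library than in the third. This contrast leans on miR-98, which has few G and C bases and rests on 65 to 92 reads. Its log2 ratio was -0.63 for the fibrosis library over the shared library and 0.47 for the shared library over the normal library. Since r was not computed without miR-98, the relation cannot be called particular to the fibrosis library. The part of base composition in the ratios was not tested.

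**Figure D5:**
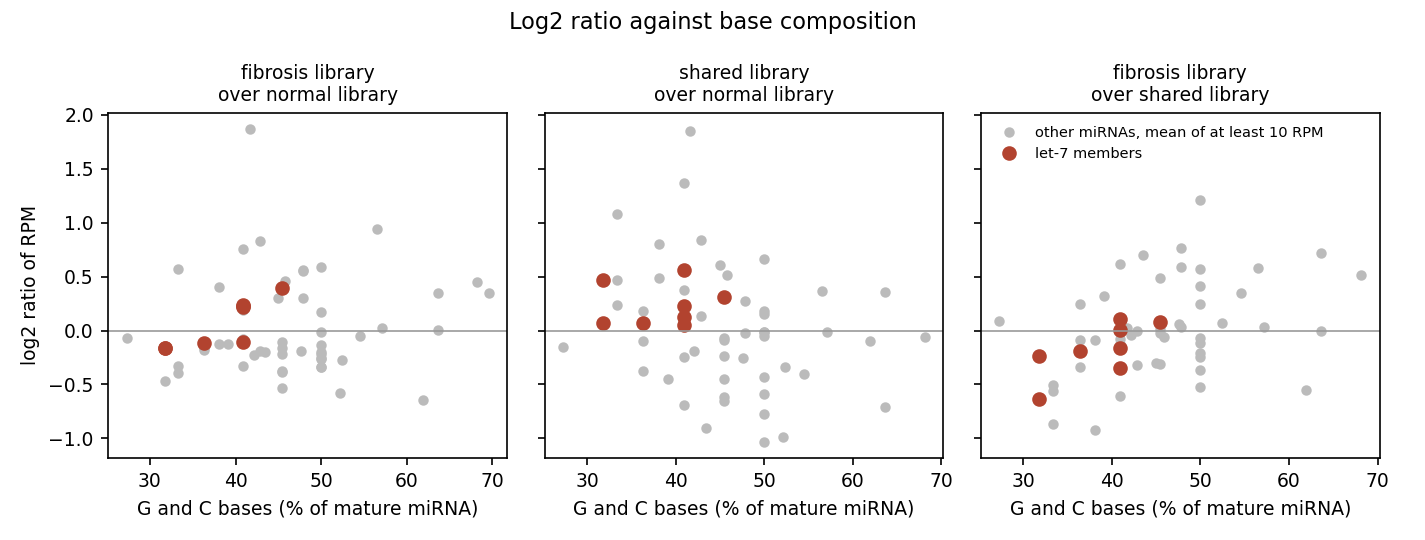
Log2 ratio of RPM against the percentage of G and C bases in the mature miRNA for the 3 pairs of libraries, with let-7 members in red and other miRNAs that averaged at least 10 RPM in grey. The members climb from left to right in the first panel (r = 0.84). The grey points (r = 0.08 in that panel) are no contrast, because some carry the base composition of the other arm.

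Minor arms of the family, the strand that is usually degraded, were close to absent. The 11 starred rows of the members together held 47 reads in the fibrosis library, 62 in the normal library and 55 in the shared library, or 0.00282%, 0.00379% and 0.00336% of the reads of both arms. let-7d* accounted for 39, 58 and 49 of these reads. The guide arm of let-7d outnumbered it 704-fold in the fibrosis library (515 to 990), 519-fold in the normal library (401 to 683) and 574-fold in the shared library (434 to 776), with overlapping intervals. let-7f, with 457850, 521041 and 492855 guide reads, had 0 reads on its 2 starred rows in each library, so its guide arm was at least 152617-fold higher in the fibrosis library against a limit of 3 reads for a count of 0. The starred rows of let-7a and let-7c had 2 or 3 reads in each library, those of let-7b, let-7e and let-7i 0 or 1, and that of miR-98 0. let-7d, the fifth member in abundance, thus had more minor-arm reads than the 7 others together in each library.

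A total of 4 antisense miRNAs of these loci are listed as well. miR-3596a, miR-3596b, miR-3596c and miR-3596d lie opposite let-7a, let-7d, let-7e and let-7f on the other strand, and each had 0 reads in the 3 libraries. A count of 0 allows up to 0.432 RPM in the fibrosis library, 0.424 RPM in the normal library and 0.472 RPM in the shared library.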

How the data were processed

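Per the labels' protocols, total RNA of rat liver was extracted with TRIZOL and made into Illumina small RNA libraries. CASAVA 1.4 and genome build rn5 stand in the submitters' processing notes. Which aligner and miRNA annotation were used, and how multiply matching reads were counted, is not stated in these sources. The deposited values are RPM computed by the authors. 100% of the values above 0 were whole multiples of what 1 read is worth, within 0.01 reads, and gave back the reads and the scaling totals.

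Groups came from the tissue label. The members, lists and tests were chosen with earlier results of these data known. RPM ratios between libraries carry 95% exact (Clopper-Pearson) binomial intervals of the reads, and the test across all miRNAs was limma 3.58.1 in R 4.3.3, with its trended variance prior, on log2(RPM + 1), adjusted by Benjamini and Hochberg's method. On the recovered reads, edgeR 4.0.16 and DESeq2 1.42.0 each called 0 of 294 miRNAs. Python 3.11.15, numpy 2.4.6, pandas 2.3.3, scipy 1.17.1 and matplotlib 3.10.9 were used for the rest, and the procedures were tested on simulated data. In the simulated test of limma all libraries were separate, and the changes were larger than those of the members. It therefore does not show how the test behaves with the same file in both groups.

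Named besides the members are their starred rows, their cluster neighbours, the antisense miR-3596 rows, miR-122 and, for each member, the non-member with a mean of at least 100 RPM nearest on the pair of log2 ratios. Sequences and coordinates are from RefSeq (GRCr8), read by name and not by position. A non-member whose name gives no arm could therefore receive the sequence of the other arm. let-7g was not analysed here.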

Additional observations from a re-analysis of the deposited data

How the results depend on the processing

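The number of miRNAs called by the test of fibrosis against normal stayed at 0 under all 18 alternatives (pseudocount, filter, scaling, test, identical files counted once), which are 16 distinct fits because leaving out a second file is the same as counting the identical files once. They include the fit with the replicate number as a replicate block, which called 0, and leaving out each library in turn (0 to 0). Whether the replicate numbers pair the samples could not be checked, because 1 of the 2 pairs is the same file. With 1 file in both groups, a count of 0 says nothing about stability. The division of the members into 4 above and 4 below 1, between the fibrosis library and the normal library, held for the same members under the 5 other scalings. The direction of the family total did not: its ratio of 1.04 became 1.09 with TMM factors, 1.09 with DESeq2 size factors, 1.06 with the reads on listed miRNAs, 1.01 with these reads without miR-122 and 0.988 with upper-quartile factors. Leaving out 1 member gave 0.976 without let-7c, 1.11 without let-7f, 1.08 without let-7a and 1.003 without let-7b. With the shared library in place of the fibrosis library the family ratio was 1.11, and those of let-7a, let-7d and let-7f turned to 1.05, 1.04 and 1.05 at the authors' totals. With it in place of the normal library the family ratio was 0.933 and that of let-7e turned to 0.787. Scaling of these 2 pairs was varied after seeing the data and moved all members together by -0.21 to 0.14 on the log2 scale. Over the normal library, the shared library then stood at 0.961 for let-7a, 0.950 for let-7d, 0.962 for let-7f and 0.994 for let-7i with the listed reads without miR-122. For the fibrosis library over the shared library, let-7c turned to 0.972 with DESeq2 size factors, and let-7b, let-7c and let-7i to 0.915, 0.869 and 0.930 with upper-quartile factors. The cause was not tested in these cases. The 7.32% of family reads in another member did not change when starred rows were added, and came to 0.196% with the 5 members joined by single-base steps summed, which hold 98.03% to 98.2% of the family. Depth limits miR-98, which rests on 65 to 92 reads.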
